A study of Homo sapiens with 6 samples.

Results

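The S100 genes encode small calcium-binding proteins with a pair of EF-hands, the loops that hold the calcium ion. Most act as dimers, bind other proteins when calcium rises inside the cell, and in part are released to act on cell surface receptors. Most of the human genes lie side by side in a cluster on chromosome 1, and in breast epithelium they are known for links to motility, differentiation and inflammation. The genes described here were chosen by name, as the rows of the deposited table whose Ensembl identifier maps to one of 10 listed S100 symbols. Of the 10, 9 were among the 10487 genes of the table. S100A7, which encodes the skin protein psoriasin, was not among them. The table also held 3 S100 genes outside that list, S100A3, S100A13 and S100A14, which are given beside it.

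MDA-MB-468 is an established human triple negative breast cancer line. The control group was 3 libraries of MDA-MB-468 cells labelled wild type, and the other group was 3 libraries of MDA-MB-468 cells labelled as overexpressing IGFBP2. Both were labelled as given no treatment. Per the study's methods, the overexpressing cells stably carry a Cas9 without cutting activity, joined to activators of transcription, and a guide RNA to IGFBP2, both brought in by lentivirus, and were drug selected and sorted on a fluorescent marker. The control cells are labelled as control and wild type, and whether they carry the activator or a control guide is not given in the sources used here. The activator, the selection and the sort therefore cannot be told apart from IGFBP2 itself. Total RNA was sequenced from the 3' ends of transcripts, and expression is given as CPM, read counts scaled to a common library size. Over the genes in the table, the depth of control replicates 1, 2 and 3 was 4579587, 3530444 and 2497353 reads, and that of IGFBP2 overexpression replicates 1, 2 and 3 was 2547997, 3068198 and 3069734 reads.

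IGFBP2, the activated gene, was at 93.5, 87.3 and 136 CPM in control replicates 1, 2 and 3, and at 566, 1176 and 498 CPM in the IGFBP2 overexpression replicates in the same order. Its log2 fold change was 2.73 (standard error 0.33, adjusted p = 0.0148, limma over all genes), in the direction of the labels. The defining markers of the line were also present. All 9 markers on the list for a basal breast cancer line were in the table, with EGFR at 869, 1137 and 805 CPM in control replicates 1, 2 and 3. None of the 9 passed at an adjusted p under 0.05, and the smallest p was that of VIM, the mesenchymal filament protein vimentin. VIM was at 435, 274 and 92.6 CPM in the control libraries and at 712, 646 and 371 CPM in the IGFBP2 overexpression libraries, with overlapping groups (log2 fold change 1.31, standard error 0.51, adjusted p = 0.32, limma). Of the 3 receptors whose lack defines triple negative cancer, ESR1 and PGR were not in the table and ERBB2 was at 15.8, 37.0 and 23.5 CPM in the control libraries.

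No listed S100 gene passed the threshold. With limma over all 10487 genes and Benjamini-Hochberg adjustment, 0 of the 9 had an adjusted p under 0.05, where 0.629% of all genes did (0.429% higher and 0.2% lower). At an unadjusted p under 0.05 the count was 2 of 9, S100A4 and S100A10, both higher, where 13% of all genes passed and 6.88% passed and were higher. With limma voom on recovered reads, and with limma and a mean-variance trend, the count at an adjusted p under 0.05 was 1 of 9, S100A4. The share of all genes that passed was then 1.34% with voom and 1.53% with the trend. In 2 of the 9, again S100A4 and S100A10, every IGFBP2 overexpression library lay above every control library, where 9.43% of all genes did so and where 18% had groups that did not overlap in either direction. In 0 of the 9 did every IGFBP2 overexpression library lie below, where 8.61% of all genes did. The median log2 fold change of the 9 genes was 0.071, beside a median of 0 over all genes. These are bulk samples, in which fewer cells of a kind and less RNA per cell cannot be told apart.

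**Figure D1:**
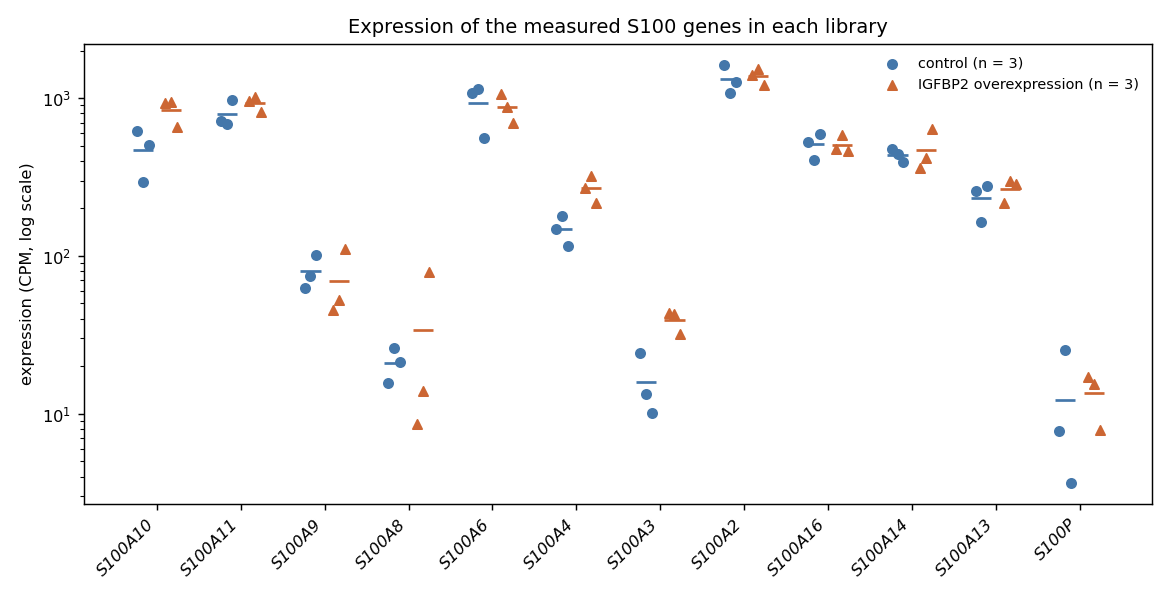
Expression of the 12 measured S100 genes in CPM on a log axis, with 1 point per library, 3 control libraries (circles) and 3 IGFBP2 overexpression libraries (triangles), and a short line at each group's mean. The triangles lie above all circles for S100A10, S100A4 and S100A3, and 1 triangle stands far above the rest for S100A8.

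S100A4 and S100A3 are neighbours. Both lie on the minus strand of chromosome 1 (GRCh38, GENCODE 44), S100A4 (ENSG00000196154) from 153543613 to 153550136 and S100A3 (ENSG00000188015) from 153547329 to 153549258. The span of S100A3 thus falls inside that of S100A4, and their exons share no base. S100A10 (ENSG00000197747) lies apart from them on the same strand, from 151982915 to 151993859. The 250 bases before the start of these 3 genes are shown because they are the S100 genes whose groups did not overlap. The start is the one RefSeq gives, which for S100A4 lies inside the GENCODE span, downstream of its outermost start, and for the other two is the outermost start. The sequences are from RefSeq on GRCh38.p14, and all read 5′ to 3′ on the minus strand. Capitals mark a match to any of 4 motifs searched on both strands. They were TTNNGNAA, bound by C/EBP factors, TGANTCA, bound by AP-1, TATAAA, the TATA box, and a longer NF-kB consensus. No matches of different motifs overlapped in these 3 windows.
S100A4, chr1:153545807-153546056: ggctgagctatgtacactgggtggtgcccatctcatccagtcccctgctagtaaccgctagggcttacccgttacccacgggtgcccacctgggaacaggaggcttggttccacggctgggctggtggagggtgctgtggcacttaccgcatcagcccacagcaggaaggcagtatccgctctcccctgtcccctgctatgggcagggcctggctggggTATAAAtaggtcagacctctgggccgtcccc
S100A3, chr1:153549259-153549508: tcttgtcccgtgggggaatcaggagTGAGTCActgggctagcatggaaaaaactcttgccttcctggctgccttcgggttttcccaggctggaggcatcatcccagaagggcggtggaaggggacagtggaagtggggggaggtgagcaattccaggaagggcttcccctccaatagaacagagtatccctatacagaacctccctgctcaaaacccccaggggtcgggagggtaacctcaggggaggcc
S100A10, chr1:151993860-151994109: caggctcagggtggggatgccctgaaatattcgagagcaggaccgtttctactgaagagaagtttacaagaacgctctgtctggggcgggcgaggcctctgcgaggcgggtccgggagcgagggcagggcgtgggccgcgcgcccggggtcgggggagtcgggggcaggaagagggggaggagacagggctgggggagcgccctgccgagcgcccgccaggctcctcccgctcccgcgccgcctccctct

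The S100A4 window held a TATA box match that begins 31 bases before the start, and 10.7% of all 35116 RefSeq promoter windows of this length held that motif. The S100A3 window held an AP-1 match that begins 225 bases before the start, a motif found in 6.57% of all windows. The S100A10 window held 0 matches to the 4 motifs. Over the 18 windows of the 12 S100 genes, 8 held the C/EBP motif, 6 the TATA box, 2 the AP-1 motif and 0 the NF-kB consensus. The shares of all windows were 33.2% for C/EBP and 1.73% for NF-kB. A match describes the letters of the window only, and several windows of 1 gene overlap.

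S100A4 encodes a protein that binds nonmuscle myosin and is known for its part in cell motility and metastasis. It was at 149, 178 and 115 CPM in control replicates 1, 2 and 3, and at 269, 322 and 217 CPM in replicates 1, 2 and 3 of IGFBP2 overexpression. The groups did not overlap. The mean was 147 ± 31.4 CPM in control cells and 269 ± 52.3 CPM in IGFBP2 overexpression cells (SD, n = 3 in each group), a ratio of 1.83. On the log2(CPM + 1) scale the difference was a log2 fold change of 0.87 (95% interval 0.34 to 1.40, standard error 0.23). Its adjusted p was 0.175 with limma, and it ranked 287 of all genes by p. The call depended on how the spread was modelled, since the adjusted p was 0.0314 with limma and a mean-variance trend and 0.0407 with limma voom. It ranged from 0.144 to 0.454 in the 6 limma fits that each left out 1 library.

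S100A3, which encodes a protein known from the hair cuticle, is not among the listed genes but showed the largest log2 fold change of the 12 measured S100 genes. It was at 24.4, 13.4 and 10.1 CPM in control replicates 1, 2 and 3, from 110, 48 and 25 reads. In IGFBP2 overexpression replicates 1, 2 and 3 it was at 43.7, 42.9 and 31.9 CPM, from 112, 133 and 97 reads. The groups did not overlap. Its log2 fold change was 1.33 (standard error 0.30, 95% interval 0.64 to 2.02), with an adjusted p of 0.12 from limma. It passed with the mean-variance trend (adjusted p = 0.0261), with limma voom (adjusted p = 0.0418), at a pseudocount of 5 (adjusted p = 0.0382, limma) and without control replicate 1 (1.67, adjusted p = 0.0287, limma). Without IGFBP2 overexpression replicate 1 its adjusted p (limma) rose to 0.359.

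S100A10 encodes p11, which forms a heterotetramer with annexin A2 and at the cell surface binds plasminogen. It was at 614, 296 and 501 CPM in control replicates 1, 2 and 3, and at 934, 939 and 655 CPM in replicates 1, 2 and 3 of IGFBP2 overexpression. The groups did not overlap, but IGFBP2 overexpression replicate 3 was close to control replicate 1. The mean was 470.3 ± 161 CPM in control and 842.6 ± 162 CPM in IGFBP2 overexpression cells (SD, n = 3 in each group), a ratio of 1.79. This gave a log2 fold change of 0.88 (standard error 0.29, 95% interval 0.22 to 1.54), with an adjusted p of 0.256 from limma. It did not pass under any of its 14 alternatives, where the adjusted p (limma) ranged from 0.0741 to 0.548.

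For each of these 3 genes the exact permutation test over the 6 libraries, two-sided, gave p = 0.1, which no comparison of 3 with 3 libraries can go below. Groups that do not overlap fix both this p and the sign of the difference when a library is left out, so neither shows stability. Over the alternative fits the log2 fold change ran from 0.70 to 1.02 for S100A4, from 1.07 to 1.67 for S100A3 and from 0.58 to 1.11 for S100A10.

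**Figure D2:**
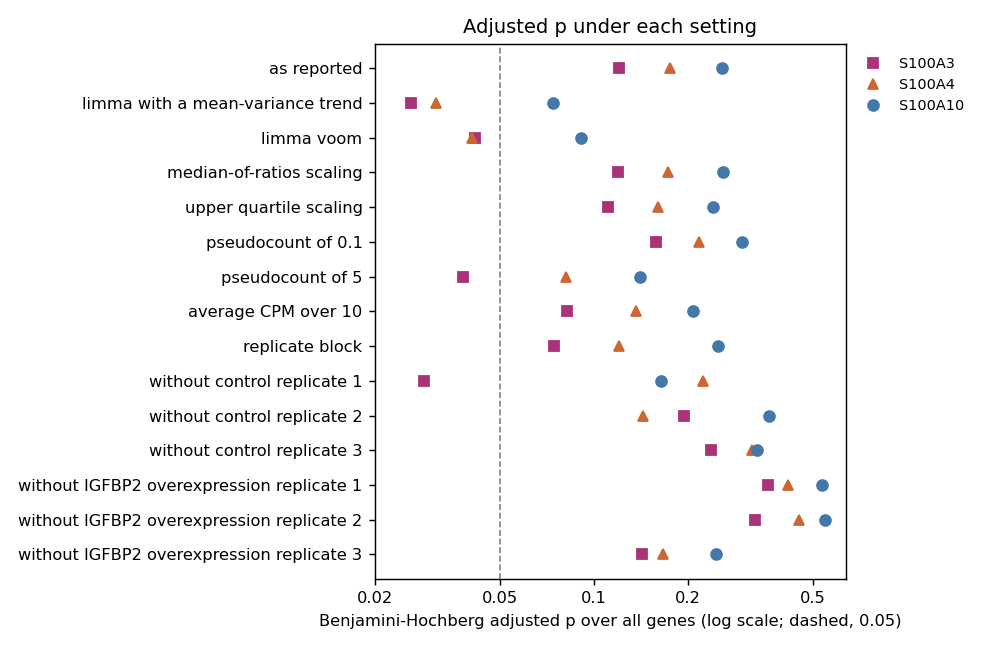
Benjamini-Hochberg adjusted p over all genes (log axis, dashed line at 0.05) for S100A3, S100A4 and S100A10 under the reported limma fit and each of 14 alternatives. S100A3 lies left of the line under 4 alternatives, S100A4 under 2 and S100A10 under 0.

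The partner of S100A10, annexin A2, had a smaller log2 fold change, and its groups did not overlap either. ANXA2 was at 889, 680.4 and 922 CPM in control replicates 1, 2 and 3, and at 991, 973 and 1026 CPM in IGFBP2 overexpression replicates 1, 2 and 3, a log2 fold change of 0.28 (adjusted p = 0.598, limma, standard error 0.19). The balance of the pair, log2 of S100A10 CPM over ANXA2 CPM, was -0.53, -1.20 and -0.88 in control replicates 1, 2 and 3. In IGFBP2 overexpression replicates 1, 2 and 3 it was -0.086, -0.052 and -0.65. The groups overlapped, since IGFBP2 overexpression replicate 3 lay below control replicate 1. The difference was 0.61 in favour of S100A10 (exact permutation test, two-sided, p = 0.2).

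S100A8 and S100A9 encode the subunits of calprotectin, a heterodimer that binds zinc and manganese and is abundant in neutrophils and inflamed epithelium. S100A8 was at 15.8, 26.1 and 21.4 CPM in control replicates 1, 2 and 3. In IGFBP2 overexpression replicates 1, 2 and 3 it was at 8.58, 13.9 and 79.5 CPM, from 22, 43 and 242 reads. IGFBP2 overexpression replicate 3 was above every control library, and replicates 1 and 2 were below every control library. Over the group, the log2 fold change was 0.056 (95% interval -1.45 to 1.56, adjusted p = 0.983, limma). It was -0.86 without IGFBP2 overexpression replicate 3 (adjusted p = 0.299, limma) and 0.67 without replicate 1 of that group (adjusted p = 0.793, limma). The spread of S100A8 within groups, an SD of 1.17 on the log2 scale, was at percentile 99.7 of all genes.

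S100A9 was at 62.8, 74.5 and 102 CPM in control replicates 1, 2 and 3, and at 45.6, 52.6 and 110.0 CPM in replicates 1, 2 and 3 of IGFBP2 overexpression. The order of the overexpression libraries was that of S100A8, with replicate 3 highest, and the groups overlapped. Its log2 fold change was -0.28 (95% interval -1.04 to 0.48, adjusted p = 0.791, limma), and it was -0.66 without IGFBP2 overexpression replicate 3 and -0.037 without replicate 1 of that group. Log2 of S100A8 CPM over S100A9 CPM was -1.995, -1.51 and -2.25 in control replicates 1, 2 and 3, and -2.41, -1.92 and -0.47 in IGFBP2 overexpression replicates 1, 2 and 3. The balance therefore stood apart in IGFBP2 overexpression replicate 3, where S100A8 was closest to S100A9. The difference between groups was 0.32 (exact permutation test, two-sided, p = 0.8). It was -0.25 without IGFBP2 overexpression replicate 3 and 0.72 without replicate 1 of that group.

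Neutrophils and other blood cells also hold calprotectin, so their markers are given beside these genes. Of 11 blood cell markers, 10 were not in the table, among them PTPRC, CD14, LYZ, ITGAM, CSF3R and MPO. The exception was CSF1R, the receptor of macrophage colony-stimulating factor, at 0.444, 1.67 and 0.809 CPM in control replicates 1, 2 and 3 and at 5.85, 9.36 and 4.27 CPM in IGFBP2 overexpression replicates 1, 2 and 3. CSF1R rose by a log2 fold change of 1.92 (standard error 0.31, adjusted p = 0.0419, limma). It had 2, 6 and 2 reads in the control libraries and was kept by the filter on mean CPM only through the overexpression group, so its call supports nothing here. Every library was labelled as MDA-MB-468 cells, a cultured line, and a part of blood cells in the S100A8 and S100A9 values was not tested. Of 7 fibroblast and endothelial markers only COL1A1 was in the table (log2 fold change -0.36, adjusted p = 0.691, limma).

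S100A6, S100A11 and S100A2 were expressed in every library and took many reads. S100A6, or calcyclin, was at 1082, 1142 and 562 CPM in control replicates 1, 2 and 3, and at 1068, 881 and 690.2 CPM in replicates 1, 2 and 3 of IGFBP2 overexpression. The groups overlapped, and control replicate 3 was the lowest of the 6 libraries. Its log2 fold change was -0.032 (95% interval -0.71 to 0.65, adjusted p = 0.981, limma).

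S100A11, which binds annexin A1, was at 719, 687 and 969 CPM in control replicates 1, 2 and 3, and at 957, 1011 and 815 CPM in replicates 1, 2 and 3 of IGFBP2 overexpression. The groups overlapped through control replicate 3, which exceeded IGFBP2 overexpression replicates 1 and 3. The log2 fold change was 0.24 (95% interval -0.23 to 0.71, adjusted p = 0.687, limma).

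S100A2, a mostly nuclear protein of epithelial cells, was at 1622, 1077 and 1269 CPM in control replicates 1, 2 and 3, and at 1390.5, 1519 and 1216 CPM in IGFBP2 overexpression replicates 1, 2 and 3. It took the most reads of any S100 gene in 5 of the 6 libraries, and S100A6 did in control replicate 2. Its log2 fold change was 0.071 (95% interval -0.41 to 0.55, adjusted p = 0.927, limma), and the control group held both the highest and the lowest library.

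S100A16 was at 529, 407 and 592 CPM in control replicates 1, 2 and 3, and at 474, 587 and 462 CPM in replicates 1, 2 and 3 of IGFBP2 overexpression. The overexpression libraries lay wholly inside the control range. The log2 fold change was 0.003 with a 95% interval of -0.47 to 0.48 (adjusted p = 0.995, limma). S100A13 and S100A14, the remaining S100 genes outside the list, had overlapping groups with log2 fold changes of 0.22 (95% interval -0.34 to 0.79) and 0.069 (95% interval -0.47 to 0.61). S100A13 shares 235 exonic bases with S100A1 on the opposite strand and 536 with a long noncoding RNA on its own strand, neither of which was in the table. S100A6 shares 37 with a long noncoding RNA on the opposite strand. Whether the counting used strand is not given in the sources used here, so reads of such partners cannot be told apart.

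S100P, known from placenta and as an activator of ezrin, lies alone on chromosome 4 (ENSG00000163993, from 6693878 to 6697170, plus strand). It had 35, 91 and 9 reads in control replicates 1, 2 and 3 and 44, 48 and 24 reads in IGFBP2 overexpression replicates 1, 2 and 3. Its values were 7.77, 25.3 and 3.64 CPM in the control libraries and 17.2, 15.5 and 7.88 CPM in the IGFBP2 overexpression libraries. The control libraries spanned a 6.96-fold range, which contained the whole overexpression group. The log2 fold change was 0.44 (95% interval -0.83 to 1.71, adjusted p = 0.808, limma). It was -0.13 without control replicate 3 and 1.12 without control replicate 2.

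**Figure D3:**
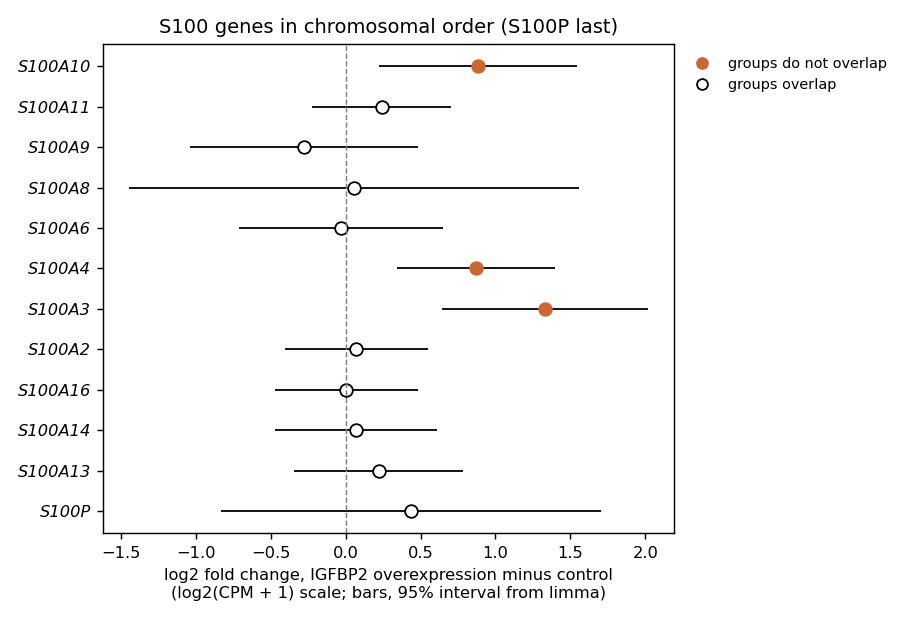
Log2 fold change of each measured S100 gene (IGFBP2 overexpression minus control, log2(CPM + 1) scale) with its 95% interval from limma, in order along chromosome 1, then S100P. Filled points mark genes whose groups did not overlap, S100A10, S100A4 and S100A3, and the intervals of the other 9 genes include 0.

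The widths of these intervals set what could be seen. For S100A16, S100A2 and S100A11 the 95% interval ran no further than 0.71 from 0 on the log2 scale. For S100A8 it reached 1.56 and for S100P 1.71, so differences up to these sizes lay within the intervals at this depth and spread. A p-value that misses the threshold does not show that expression was equal.

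**Figure D4:**
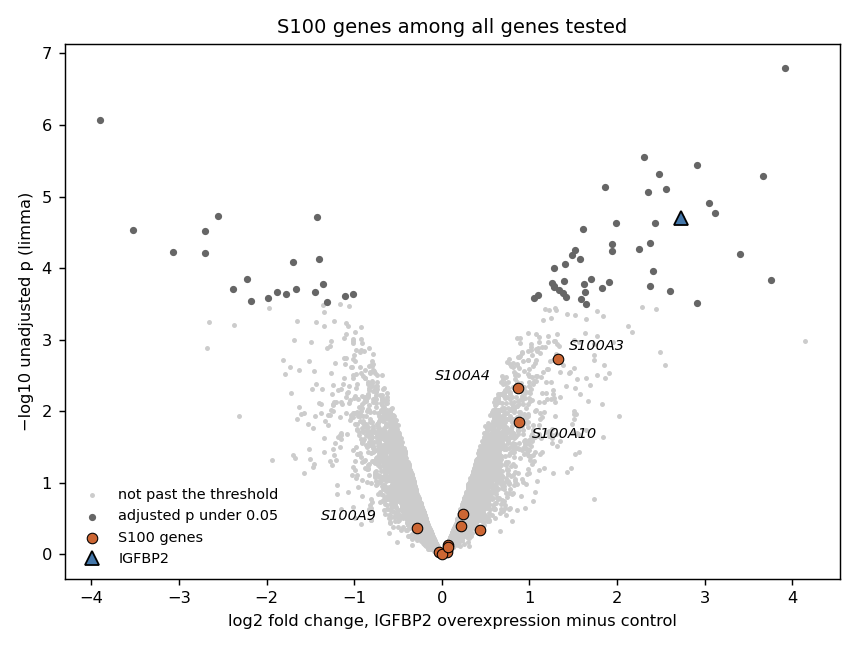
Log2 fold change (x axis) against −log10 of the unadjusted limma p (y axis) for all 10487 genes, with the 66 genes at an adjusted p under 0.05 in dark grey, the 12 S100 genes as circles and IGFBP2 as a triangle. S100A3, S100A4 and S100A10 stand apart from the other S100 genes but below the dark points.

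All S100 genes together took 0.547%, 0.461% and 0.477% of the reads in control replicates 1, 2 and 3, and 0.582%, 0.616% and 0.516% in IGFBP2 overexpression replicates 1, 2 and 3. The lowest overexpression library was below the highest control library. Between S100A10 and S100A13, the outermost measured genes of the cluster, GENCODE 44 places 62 protein-coding genes, among them the epidermal differentiation complex, whose genes build the outer layer of skin. Only 12 of all genes in this stretch were in the table, 11 S100 genes and TCHH, the hair follicle protein trichohyalin. TCHH had a log2 fold change of 0.19 (adjusted p = 0.888, limma), and it was the only 1 of 27 genes on the epidermal differentiation list in the table.

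Of 21 binding partners and receptors of S100 proteins, 17 were in the table and 0 passed at an adjusted p under 0.05, with 2 at an unadjusted p under 0.05 (13% of all genes) and a median log2 fold change of 0.13. AGER and TLR4, which encode the classical receptors of secreted S100 proteins, were not in the table. In 3 of the 17, every IGFBP2 overexpression library lay above every control library, where 9.43% of all genes did so. Besides ANXA2 these were ANXA1 and ANXA5. The groups overlapped for the other two annexins of the list, ANXA6 (log2 fold change 0.67, adjusted p = 0.677, limma) and ANXA11 (0.11, adjusted p = 0.865, limma). ANXA1, the partner of S100A11, was at 143, 121 and 188 CPM in control replicates 1, 2 and 3 and at 221, 237 and 205 CPM in IGFBP2 overexpression replicates 1, 2 and 3 (log2 fold change 0.57, standard error 0.21, adjusted p = 0.295, limma). ANXA5 was at 94.3, 81.2 and 89.4 CPM in the control libraries and at 128, 139 and 116 CPM in the IGFBP2 overexpression libraries (log2 fold change 0.53, standard error 0.18, adjusted p = 0.267, limma). The third smallest p of the list was that of NPTN, which encodes the S100A8 receptor neuroplastin (log2 fold change 0.47, adjusted p = 0.437, limma), and its groups overlapped.

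Other EF-hand genes were mixed. Of 28, 25 were in the table and 0 passed at an adjusted p under 0.05, with 4 higher and 1 lower at an unadjusted p under 0.05 and a median log2 fold change of 0.11. Of all genes, 6.88% were higher and 6.12% lower at that p. Every IGFBP2 overexpression library lay above every control library in 6 of the 25 and below in 2, where 9.43% and 8.61% of all genes did. The smallest p was that of CALML5, a calmodulin-like protein of differentiating skin, at 132, 95.4 and 100.3 CPM in control replicates 1, 2 and 3 and at 66.3, 64.9 and 46.0 CPM in IGFBP2 overexpression replicates 1, 2 and 3 (log2 fold change -0.88, standard error 0.22, adjusted p = 0.149, limma). CIB1, which binds integrin tails, followed with a log2 fold change of 0.71 (adjusted p = 0.184, limma), and CAPN2, the large subunit of m-calpain, with 0.49 (adjusted p = 0.308, limma). Each of these 3 had groups that did not overlap.

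Of 11 markers of differentiated keratinocytes, 5 were in the table and 0 passed, and the groups did not overlap for CALML5 and KLK5, both below the control libraries in IGFBP2 overexpression cells, where 8.61% of all genes lay below. KLK5, a serine protease of shedding skin, had a log2 fold change of -0.76 (adjusted p = 0.175, limma). KRT10, a keratin of the upper skin layers, went the other way, at 136, 102 and 122 CPM in the control libraries and at 225, 204 and 112 CPM in the IGFBP2 overexpression libraries, with overlapping groups (log2 fold change 0.53, adjusted p = 0.465, limma). The 5 markers summed to 732, 671 and 598 CPM in control replicates 1, 2 and 3 and to 539.9, 519.7 and 474 CPM in IGFBP2 overexpression replicates 1, 2 and 3. KLK5 was the most abundant except in IGFBP2 overexpression replicate 1, where KRT10 was at 225 CPM and KLK5 at 207 CPM. KRT1, DSG1 and KRTDAP were not in the table. Their part in the S100 values was not tested.

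Of 19 transcription factors known to act on S100 genes, 16 were in the table and 0 passed at an adjusted p under 0.05, with 0 higher and 1 lower (6.12% of all genes) at an unadjusted p under 0.05 and a median log2 fold change of -0.10. The gene at an unadjusted p under 0.05 was JUNB, an AP-1 subunit, at 131, 181 and 156 CPM in control replicates 1, 2 and 3 and at 106, 89.1 and 118 CPM in IGFBP2 overexpression replicates 1, 2 and 3 (log2 fold change -0.57, adjusted p = 0.289, limma). Its groups did not overlap. In 1 of the 16, JUNB, every IGFBP2 overexpression library lay below every control library, where 8.61% of all genes did. In 1 of the 16 all lay above, where 9.43% of all genes did. CEBPA, a C/EBP factor, had a log2 fold change of -0.60 (adjusted p = 0.413, limma) and FOSL1, another AP-1 subunit, of 0.98 (adjusted p = 0.437, limma), both with overlapping groups.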

How the data were processed

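Per the study's methods and the submitters' processing notes, the authors used bbduk for trimming, STAR for alignment to hg38, htseq-count (HTSeq 0.9.1) for counts per gene and edgeR for normalization, and kept genes whose mean CPM exceeded 5 in a condition. The package they used for normalization also gave the authors' own calls of differing genes. At a threshold of 0.05 the paper reports many more calls from these cells than the 66 genes of the limma fit used here. Whether S100 genes were among the paper's calls was not examined here. The deposited values are log2(CPM + 1). Here CPM was 2 to the power of the value less 1, and 100% of values were whole reads (tolerance 0.01 of a read). Limma (3.58.1, R 4.3.3) took these deposited log2 values for all 10487 genes, with the group as its sole term and no mean-variance trend. The p-values were adjusted over all genes (Benjamini-Hochberg, threshold 0.05). The fits were tested on simulated reads that had the same spread for every gene. Limma recovered 47% of 2-fold changes and 98% of the larger ones, with 9 false calls. Genes with a wide spread, such as S100A8, were not represented by that setting. Symbols matched 10462 identifiers. Both groups hold 3 libraries, labelled as biological replicates, and the p-values measure the spread between them. The study describes 1 engineered overexpressing line, so spread between separately made lines is not covered. Named were all S100 genes and, of the partner, epidermal differentiation, EF-hand and factor lists, the genes that passed or else the 3 with the smallest p. The S100 genes, the lists and the test were chosen with earlier results of these data known. ANXA2, ANXA6, ANXA11 and the cell type markers EGFR, ERBB2, VIM, KLK5, KRT10, CSF1R and COL1A1 fall outside that rule and were chosen after their values were seen. Alternatives covered the variance model, scaling, pseudocount, filter, replicate block and left-out libraries. Intervals from limma cover the spread between libraries.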

Additional observations from a re-analysis of the deposited data

How the results depend on the processing

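The number of genes differing, 66, was 160 (94 higher, 66 lower) with a mean-variance trend, 141 (90 higher, 51 lower) with limma voom, 37 at a pseudocount of 0.1, 129 at a pseudocount of 5, and 12 to 79 with 1 library left out (12 and 13 without IGFBP2 overexpression replicates 1 and 2, and 17 without control replicate 3). The number of listed S100 genes differing, 0, was 1 with the trend and 1 with limma voom, and 0 under the other 12 alternatives. IGFBP2 passed under all 14, at 2.35 to 2.97. With the replicate block, 55 genes differed, 42 of them among the 66, and no S100 or IGFBP2 call changed. Deviations from the group means correlated at 0.17, -0.064 and 0.084 between libraries of 1 number, which shows no consistent pairing. Whether such libraries share a day or batch is not given in the sources used here. Of the S100 genes' log2 fold changes, 149 kept their direction and side of the threshold, 6 passed it and 13 changed sign, all of these 13 with 1 library left out, in genes whose adjusted p was never under 0.285. With 1 library left out, S100A6 ranged from -0.36 to 0.15, S100A8 from -0.86 to 0.67, S100A9 from -0.66 to -0.037, S100A11 from 0.15 to 0.39, S100A13 from -0.013 to 0.37, S100A14 from -0.17 to 0.24, S100A16 from -0.15 to 0.12, S100A2 from -0.067 to 0.23, S100P from -0.13 to 1.12, and the S100A8 to S100A9 balance from -0.25 to 0.72. The cause was not tested. Scaling moved the median of all genes by at most 0.023. S100P had 9 to 91 reads in a library and S100A8 had 22 to 242. DESeq2 and edgeR tests were not run on the recovered reads, and limma voom was the fit to reads.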
